A study of Mus musculus with 6 samples.

Results

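The multidomain members of the BCL2 family were examined in mouse splenic B cells with and without hnRNPL, an RNA-binding protein of the nucleus that regulates splicing. The 10 members were taken by gene symbol from a table of 55421 genes: the prosurvival genes *Bcl2*, *Bcl2l1*, *Bcl2l2*, *Mcl1*, *Bcl2a1a*, *Bcl2a1b* and *Bcl2a1d*, and the effectors *Bax*, *Bak1* and *Bok*. The WT group was 3 CD21-cre mice and the hnRNPL-deficient group 3 hnRNPL F/F CD21-cre mice, with Cre and, per the study's methods, a Rosa mT/mG reporter in both groups. All mice were described as C57BL6/J and older than 6 weeks. The CD21 promoter that drives Cre is active mainly in mature B cells of the periphery, and the reporter turns on GFP in cells in which Cre has been active. B cells were stimulated for 24 h with IL-4 at 5 ng/ml together with LPS at 5 μg/ml, the GFP+ fraction was then sorted, and polyadenylated RNA was sequenced as 1 library per mouse.

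Proteins of this family decide whether the outer mitochondrial membrane is breached during apoptosis. BAX and BAK, and in some settings BOK, form pores in that membrane and release cytochrome c, which leads to the assembly of the apoptosome and the activation of caspases. BCL2, BCL-XL (*Bcl2l1*), BCL-W (*Bcl2l2*), MCL1 and A1 (the *Bcl2a1* genes) hold the effectors and the BH3-only proteins in check. In B cells, BCL2 and MCL1 are known for keeping mature cells alive, and A1 and BCL-XL are known to be induced when the cells are activated, A1 mainly through NF-kB.

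The values are normalized counts, the reads counted on a gene divided by a size factor of the library. The libraries held between 40395186 and 75180749 reads on genes, and hnRNPL-deficient library 3 was the shallowest. *Hnrnpl* itself was at 6.74% of its WT mean in the hnRNPL-deficient libraries. The summed counts of 8 B cell markers were 421826 to 506604 in WT and 444738 to 481158 in hnRNPL-deficient libraries, and none of the 8 was called. The neutrophil markers *S100a8*, *S100a9* and *Elane* were at 0 in all 6 libraries. Summed T cell markers did not exceed 38.4 normalized counts in any library. The 5 monocyte and macrophage markers summed to 260.0 to 331 in WT and to 1239 to 1382 in hnRNPL-deficient libraries, nearly all of it *Adgre1* (log2 fold change 2.24, adjusted p = 1.39e-04 from limma), while *Lyz2* and *Cd14* were at 0 in 5 libraries each and at most 2.02 in hnRNPL-deficient library 2. Of 5 plasma cell markers, *Jchain* was called lower. The part of these markers in the results below was not tested. In bulk RNA, fewer cells of a type and less RNA per cell cannot be told apart.

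The A1 genes are near-identical copies, which limits how reads can be assigned to them. They lie in a cluster of 485 kb on chromosome 9, from 88723285 to 89207827 in the GRCm38 (mm10) assembly. Their coding sequences are 516 bases long without the stop codon and differ at 12 positions in all. *Bcl2a1a* and *Bcl2a1d* are 98.6% identical, *Bcl2a1b* and *Bcl2a1d* 98.8%, and *Bcl2a1a* and *Bcl2a1b* 97.9%. The first 120 coding bases, in which 7 of the 12 differing positions fall, are given here from the GENCODE transcripts. Within the coding sequence, only reads that cover such positions can be told apart. Capitals mark the positions at which the 3 genes are not all alike. The bases lie at chr9:88957051-88957170 on the plus strand for *Bcl2a1a*, at chr9:89199360-89199479 on the plus strand for *Bcl2a1b* and at chr9:88731600-88731719 on the minus strand for *Bcl2a1d*.
Bcl2a1a: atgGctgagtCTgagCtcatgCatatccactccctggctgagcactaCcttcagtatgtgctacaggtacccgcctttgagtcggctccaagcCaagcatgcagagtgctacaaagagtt
Bcl2a1b: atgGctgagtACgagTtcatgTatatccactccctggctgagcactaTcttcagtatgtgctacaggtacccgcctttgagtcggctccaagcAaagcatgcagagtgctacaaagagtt
Bcl2a1d: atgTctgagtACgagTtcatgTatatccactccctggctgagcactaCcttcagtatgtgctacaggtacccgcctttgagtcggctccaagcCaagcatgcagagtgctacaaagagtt

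Of all windows of 100 bases, the length of a read here, 56.5% of the *Bcl2a1a* transcript, 68.9% of the *Bcl2a1b* transcript and 45.3% of the *Bcl2a1d* transcript occur in neither of the other two. Per the study's methods the reads were paired, and these windows take each read alone, so they do not count what its mate could tell apart. In the GENCODE annotation used here, 49.1% of the exon bases of *Bcl2a1b* are also exon bases of *Gm29094* on the same strand, a gene listed at 0 in all 6 libraries. How the study treated reads that fit more than 1 gene or place is not given in the sources used here. The 3 counts are therefore uncertain as separate genes, and their sum is given beside them.

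The first comparison asked how the members differed between the genotypes. All 3 A1 genes fell and the effector *Bax* rose in hnRNPL-deficient B cells. *Bak1*, *Bcl2l1*, *Bcl2* and *Bcl2l2* did not pass the test, with *Bcl2* and *Bcl2l2* at 1.26 and 1.25 times their WT means. *Mcl1* passed it, but at 1.27 times its WT mean did not reach the fold change required for a call. The summed A1 counts went from 15882 ± 2261 normalized counts in WT to 8298 ± 532 in hnRNPL-deficient libraries (SD, n = 3 mice each), and *Bax* from 2292 ± 118 to 4038 ± 213. A gene was called when its Benjamini-Hochberg adjusted p from limma was under 0.1 with a fold change of at least 1.5, the thresholds of the study. The mean over the 6 libraries reached 10 normalized counts for 9 of the 10 members, which were tested among 17640 genes. Of these 9, 3 were called lower and 1 was called higher. The 3 called lower are the near-identical A1 genes, whose counts are uncertain as separate genes. Among all genes tested, 4.08% were called lower and 7.28% were called higher. The median log2 fold change was -0.06 over the 9 members and -0.03 over all genes tested.

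**Figure D1:**
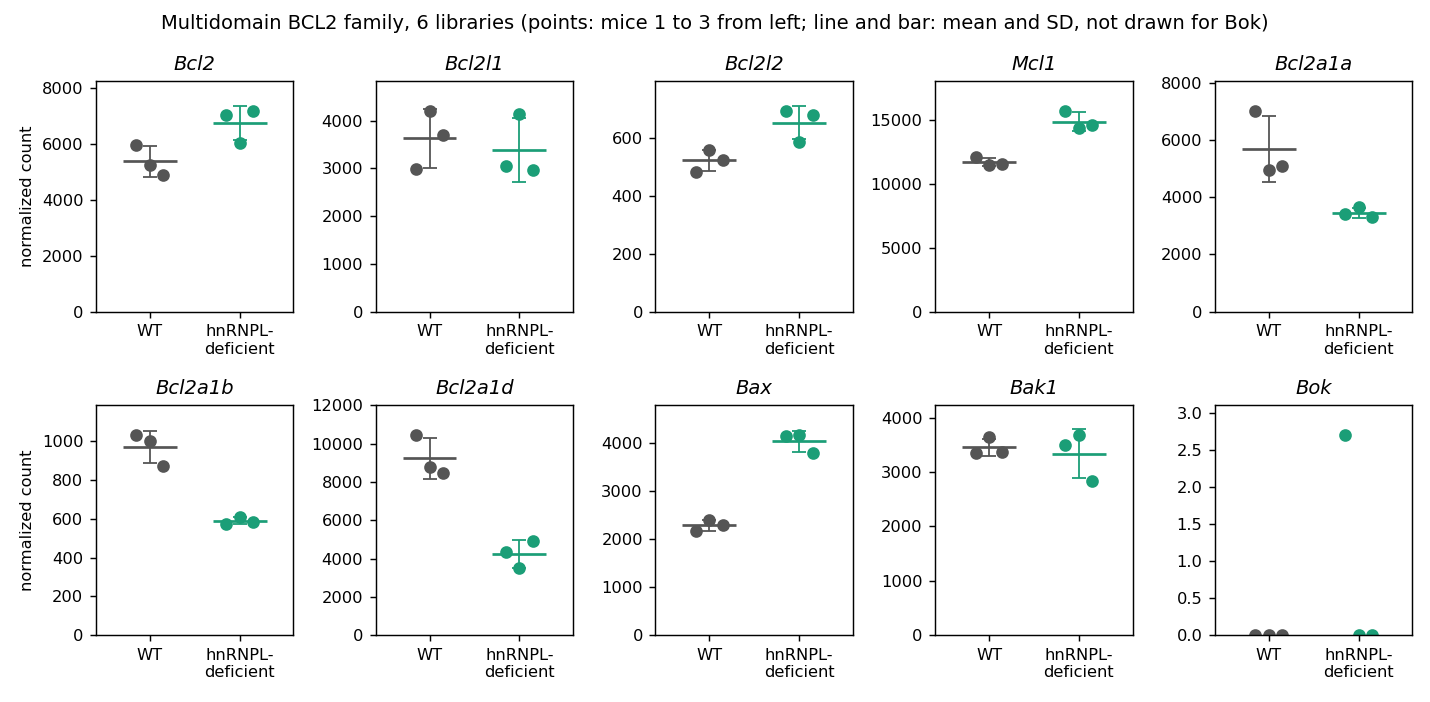
Normalized counts (linear axes from 0) of the 10 members in the 3 WT and 3 hnRNPL-deficient libraries. Points are libraries, lines and bars are means and SD, and *Bok* is shown without them. The hnRNPL-deficient points lie below all WT points for the 3 *Bcl2a1* genes and above them for *Bax*, *Mcl1*, *Bcl2* and *Bcl2l2*.

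Among the prosurvival genes, the A1 genes are described first. *Bcl2a1d* (ENSMUSG00000099974.1) had 10453, 8777 and 8466 normalized counts in WT libraries 1, 2 and 3, and 4358, 3490.3 and 4934 in hnRNPL-deficient libraries 1, 2 and 3. The highest hnRNPL-deficient library was thus far below the lowest WT library. *Bcl2a1d* fell to 46.2% of its WT mean, a log2 fold change of -1.12 with a standard error (SE) of 0.144 (adjusted p = 0.00289 from limma), the largest change in either direction among the 9 tested members. It was called lower in each of 18 other fits, which changed the normalization, the filter, the model or the tool or left out a library.

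*Bcl2a1a* (ENSMUSG00000102037.1) had 7004, 4941 and 5102 normalized counts in WT and 3403, 3648 and 3292 in hnRNPL-deficient libraries. WT library 1 stood above the other two WT libraries, and the hnRNPL-deficient libraries were close to each other and below all 3. *Bcl2a1a* fell to 60.7% of its WT mean (log2 fold change -0.70, SE 0.141, adjusted p = 0.0172 from limma). Without WT library 1 its log2 fold change was -0.54 and with library weights -0.57, both under the 1.5-fold minimum, with adjusted p from limma of 0.0176 and 0.00456.

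*Bcl2a1b* (ENSMUSG00000089929.1) had 1031, 1000.4 and 872 normalized counts in WT and 573, 609.8 and 584 in hnRNPL-deficient libraries. The groups did not overlap, and the gene fell to 60.9% of its WT mean (log2 fold change -0.71, SE 0.123, adjusted p = 0.00940 from limma). With the 3 genes summed to 1 row, the counts were 18487, 14718 and 14439.7 in WT and 8335, 7748 and 8811 in hnRNPL-deficient libraries. For the sum the log2 fold change was -0.93 (SE 0.119, 95% interval -1.20 to -0.66, adjusted p = 0.00281 from limma).

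How the A1 reads divided among the 3 genes does not depend on the scaling of libraries. *Bcl2a1d* took 56.5, 59.6 and 58.6% of them in WT and 52.3, 45.0 and 56.0% in hnRNPL-deficient libraries, so that its share was lower in every hnRNPL-deficient library than in any WT library. The difference of the means was -7.15 percentage points (two-sided exact permutation test, p = 0.1, the smallest p that 3 against 3 libraries allow, and 0.2 adjusted over the 3 shares). The share of *Bcl2a1a* was 35.6% ± 2.17 in WT and 41.8% ± 4.92 in hnRNPL-deficient libraries (SD, n = 3, exact p = 0.2), and that of *Bcl2a1b* was 6.14% ± 0.617 and 7.13% ± 0.657 (exact p = 0.2). This test cannot reach a p under 0.05 here and leaves undecided whether the paralogs fell unequally. Without hnRNPL-deficient library 2 the differences were -4.12 points for *Bcl2a1d*, 3.50 for *Bcl2a1a* and 0.617 for *Bcl2a1b*.

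**Figure D2:**
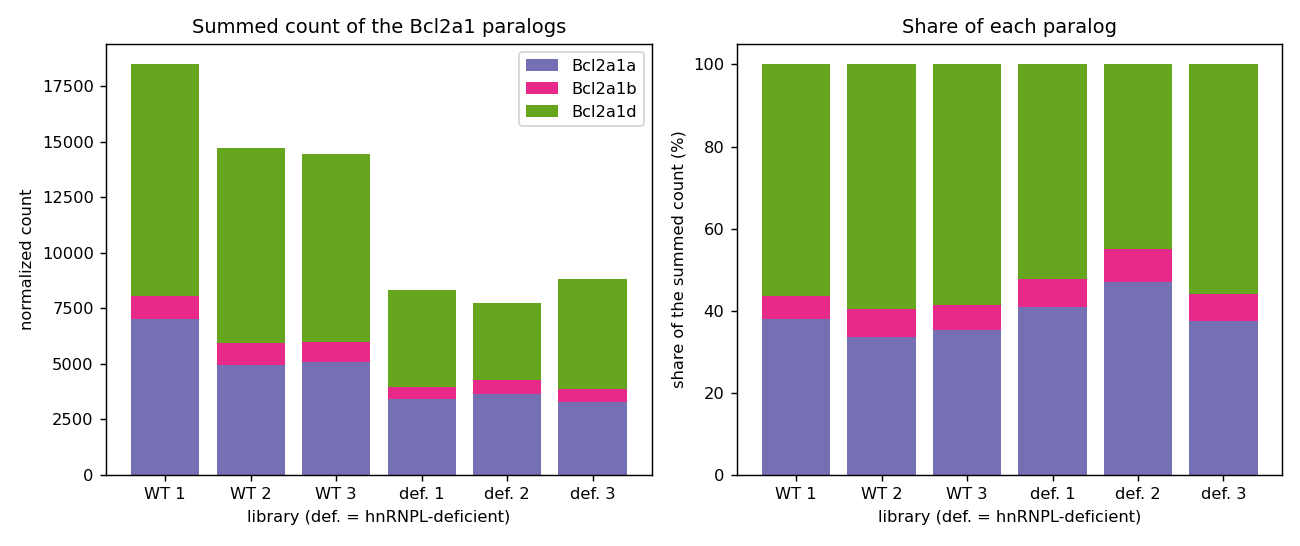
Stacked normalized counts of *Bcl2a1a*, *Bcl2a1b* and *Bcl2a1d* in each library (left) and the share of each in their sum in percent (right). The sum lies between 14439.7 and 18487 in WT and between 7748 and 8811 in hnRNPL-deficient libraries, and *Bcl2a1d* takes the largest share in WT libraries and in hnRNPL-deficient libraries 1 and 3.

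Genes around the cluster did not mostly fall. Of 20 other tested genes within 500 kb of it, 1 was called lower (*Snhg5*) and 4 were called higher (*Zfp949*, *4930579C12Rik*, *Gm10634* and *Gm2396*). All were named after their values were seen, and the median log2 fold change of the 20 genes was 0.27. Over all genes tested, 4.08% were called lower and 7.28% higher, with a median of -0.03. The non-member genes whose profile over the 6 libraries was most like that of *Bcl2a1d* were *Gm11131*, *Lipg* and *Cd2ap*, with root mean square differences of 0.088, 0.090 and 0.098 between log2 values centred on each gene's own mean. *Cd2ap*, an adaptor of the actin cytoskeleton, had a log2 fold change of -0.99 and *Lipg*, endothelial lipase, of -1.17, a direction that follows from how they were chosen.

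*Mcl1* (ENSMUSG00000038612.16) encodes a short-lived protein that mature B cells need for survival. Its counts were 12086, 11468 and 11606 in WT and 15715, 14380.4 and 14600.1 in hnRNPL-deficient libraries. Both groups were tight and did not overlap. The log2 fold change was 0.35 (SE 0.0875, 95% interval 0.15 to 0.55, adjusted p = 0.0390 from limma), a ratio of the means of 1.27, under the 1.5-fold minimum. Whatever the fold change, 10.0% of all genes tested were higher and 7.97% were lower at an adjusted p under 0.1, and *Mcl1* was the only member added to those called. Its adjusted p from limma rose to 0.150 when WT library 2 was left out, to 0.133 for WT library 3, to 0.129 for hnRNPL-deficient library 1 and to 0.104 with no mean-variance trend in the model, while the log2 fold change stayed between 0.31 and 0.37 whichever library was left out.

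*Bcl2* (ENSMUSG00000057329.7), the founding member of the family, had 5962, 5235 and 4890.5 normalized counts in WT and 7016, 6022 and 7159 in hnRNPL-deficient libraries. The lowest hnRNPL-deficient library was just above the highest WT library. The log2 fold change of 0.33 (SE 0.114, 95% interval 0.07 to 0.59) had an adjusted p of 0.103 from limma. This p was under 0.1 in 10 of 18 other fits and ranged from 0.0163 to 0.291 over them, so the position of *Bcl2* relative to the threshold depended on the fit.

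*Bcl2l2* (ENSMUSG00000089682.10), which encodes BCL-W, had the fewest counts of the tested members in WT. It had 485, 560.3 and 525 normalized counts in WT and 694, 589 and 681 in hnRNPL-deficient libraries, without overlap. Its log2 fold change was 0.32 (95% interval 0.01 to 0.63, adjusted p = 0.167 from limma). The read-through gene model *Gm20521*, listed at 0 in all libraries, covers 13.3% of its exon bases on the same strand.

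*Bcl2l1* (ENSMUSG00000007659.18) varied more between mice of 1 genotype than between genotypes. Its counts were 2981, 4199 and 3708 in WT and 3045, 4147 and 2962 in hnRNPL-deficient libraries. The second library was the highest of each group and the groups overlapped widely. The log2 fold change was -0.10 (adjusted p = 0.727 from limma), and its 95% interval, -0.49 to 0.28, reached neither a 1.5-fold rise nor a 1.5-fold fall. The gene gives rise to long and short spliced forms with opposed activity, which counts per gene do not separate.

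Of the 7 prosurvival genes, 6 had values that did not overlap between the genotypes, 3 lower and 3 higher in hnRNPL-deficient libraries, and of the effectors *Bax* did not overlap. Among all genes tested, 34.0% did not overlap.

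Among the effectors, *Bax* (ENSMUSG00000003873.11) had 2174, 2409.7 and 2292 normalized counts in WT and 4146, 4176 and 3793 in hnRNPL-deficient libraries. The lowest hnRNPL-deficient library was well above the highest WT library. *Bax* rose to 1.76 times its WT mean (log2 fold change 0.82, SE 0.0961, 95% interval 0.60 to 1.04, adjusted p = 0.00201 from limma). The log2 fold change stayed between 0.78 and 0.89 over all alternatives, and *Bax* was called higher in each of 18 other fits. The gene lies on chromosome 7 from 45461697 to 45466898, 16.6 Mb from the deleted *Hnrnpl* locus on the same chromosome. Of 51 other tested genes within 500 kb of *Bax*, 6 were called higher and 4 lower (*Fcgrt*, *Pih1d1*, *Rras* and *Fam83e*, named after their values were seen), with a median log2 fold change of -0.23. The shares over all genes tested were 7.28% higher and 4.08% lower.

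*Bax* is a known target of p53, and its promoter is shown for that reason. The 300 bases at chr7:45466849-45467148 on the minus strand of GRCm38 run from 250 bases before to 50 bases after the RefSeq start. Capitals mark the only place where the letters of the p53 half-site consensus were found on either strand, beginning 201 bases before the start. The search was for a half-site alone, and binding of p53 to it was not tested.
Bax promoter: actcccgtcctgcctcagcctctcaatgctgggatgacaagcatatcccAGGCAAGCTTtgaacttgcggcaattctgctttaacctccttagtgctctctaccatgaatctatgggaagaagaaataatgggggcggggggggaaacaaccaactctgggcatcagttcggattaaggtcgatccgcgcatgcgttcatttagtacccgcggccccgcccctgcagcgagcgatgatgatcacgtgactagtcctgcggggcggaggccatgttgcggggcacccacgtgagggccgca

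This 10-base consensus was searched without mismatches, and 8.36% of 32851 RefSeq promoter windows of the same length outside chromosome 18 hold it, so a match is common. None of the windows of the other members held it. The NF-kB consensus was found in 8.46% of all these windows and in none of the windows of *Bcl2a1a*, *Bcl2a1b* and *Bcl2a1d*, which says only that its letters are not in that stretch. Among the other members, only 1 of the windows of *Bcl2l1* held it.

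*Bak1* (ENSMUSG00000057789.14) had 3345, 3639 and 3367 normalized counts in WT and 3496, 3682 and 2839 in hnRNPL-deficient libraries. The groups overlapped, with the shallowest library, hnRNPL-deficient library 3, the lowest of all. The log2 fold change was -0.06 (95% interval -0.33 to 0.22, adjusted p = 0.799 from limma), an interval that lies within a 1.5-fold change either way, and its sign turned with equal library totals and with quantile normalization. *Bok* (ENSMUSG00000026278.14), whose product can permeabilize mitochondria on its own, had 3 reads in hnRNPL-deficient library 1 and 0 reads in the 5 other libraries. A count of 0 allows up to 3 reads, or 2.29 to 4.11 normalized counts depending on the library, so *Bok* was not tested and no fold change is given.

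**Figure D3:**
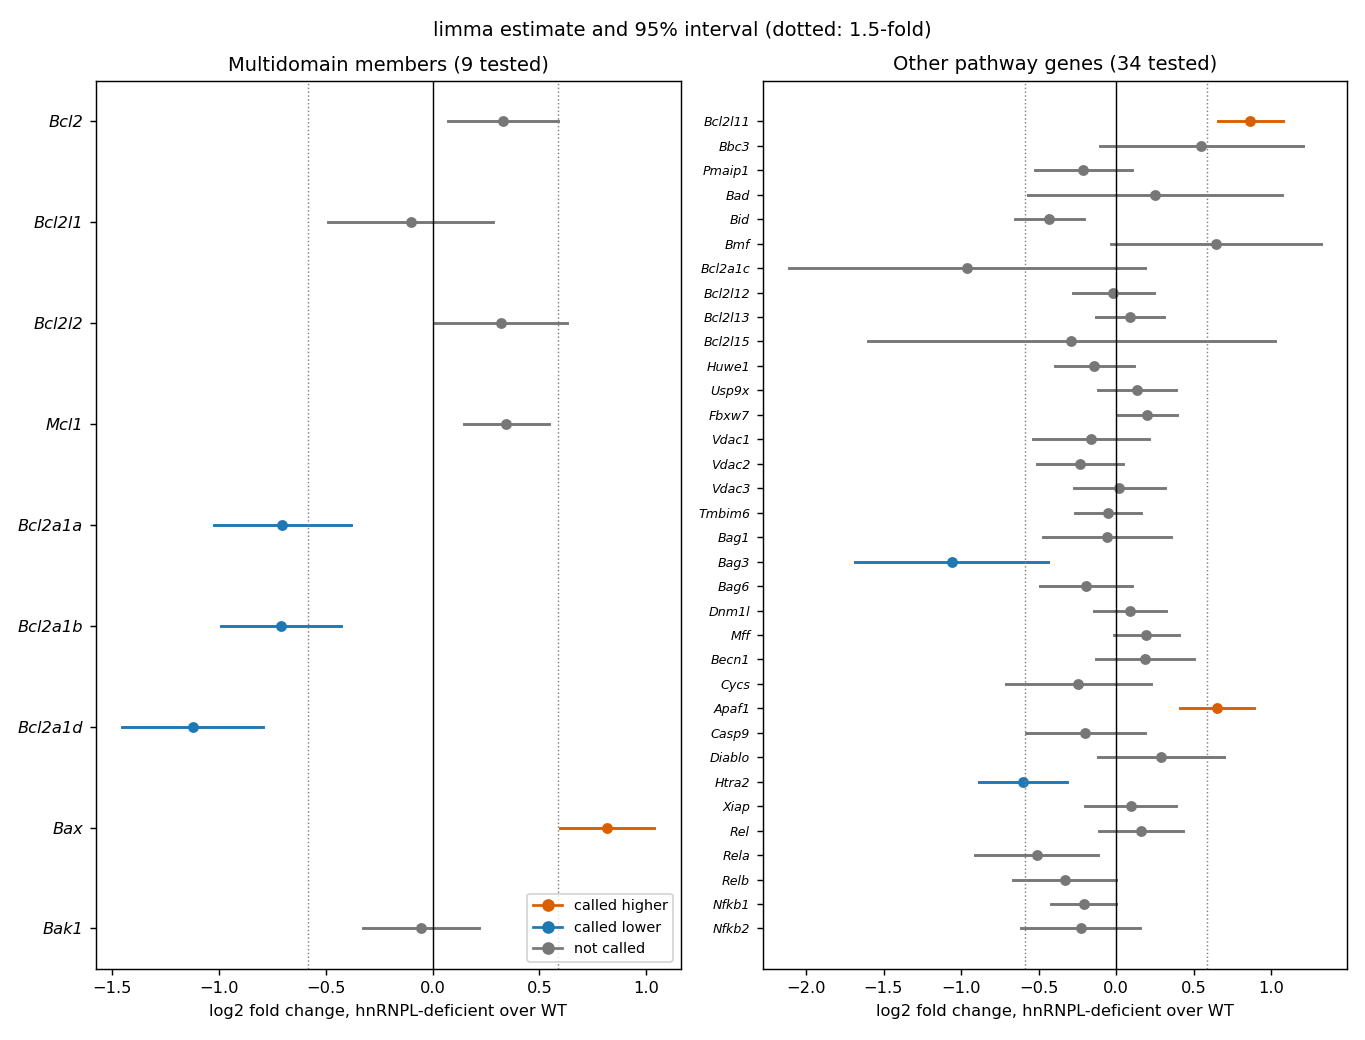
Log2 fold change (hnRNPL-deficient over WT) with its 95% interval from limma for the 9 tested members (left) and 34 other tested genes of the pathway (right); dotted lines mark 1.5-fold. *Bax*, *Bcl2l11* and *Apaf1* are called higher, and the 3 *Bcl2a1* genes, *Bag3* and *Htra2* lower.

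To compare the members with each other, counts were divided by the length of their merged exons in kilobases. Merged exons pool all annotated transcripts of a gene and ran from 0.817 kb for *Bcl2a1b* to 9.157 kb for *Bcl2*. Where part of that length is not used in these cells, the level per kb is understated, which was not examined. In WT, the order from high to low was *Bcl2a1d* (10697 ± 1238 normalized counts per kb, SD, n = 3), *Bcl2a1a* (6938 ± 1401), *Mcl1* (3429 ± 94.8), *Bax* (1454 ± 74.9), *Bak1* (1433 ± 68.1), *Bcl2a1b* (1184 ± 103), *Bcl2l1* (791 ± 134), *Bcl2* (586 ± 59.7) and *Bcl2l2* (117 ± 8.43). Neighbours in that order whose libraries overlapped were *Bax* with *Bak1* and *Bcl2l1* with *Bcl2*. The place of *Bcl2a1b* rests on the exon bases it shares with *Gm29094*, and those of the 3 A1 genes on the reads that could be assigned.

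In hnRNPL-deficient libraries *Bcl2a1d* (4937 ± 842 normalized counts per kb), *Mcl1* (4359 ± 209) and *Bcl2a1a* (4209.8 ± 222) headed the order and each overlapped the next. *Bax*, at 2562 ± 135, no longer overlapped *Bak1*, at 1387 ± 184. Per kb, the ratio of *Bax* to *Bak1* was 0.993, 1.01 and 1.04 in WT and 1.81, 1.73 and 2.04 in hnRNPL-deficient libraries. The level of *Bax* rests in part on exon bases it shares with *Gm45808*, a gene listed at 0 in all libraries. These are 12.2% of the exon bases of *Bax*, on the same strand. The A1 genes made up 79.1% ± 2.16 of the summed level per kb of the 7 prosurvival genes in WT and 62.2% ± 1.64 in hnRNPL-deficient libraries (SD, n = 3), and *Mcl1* made up 14.5% ± 1.21 and 27.5% ± 1.21. That sum was 23743 ± 2717 in WT and 15847 ± 616 in hnRNPL-deficient libraries. These shares and sums are descriptions of RNA levels and were not tested.

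**Figure D4:**
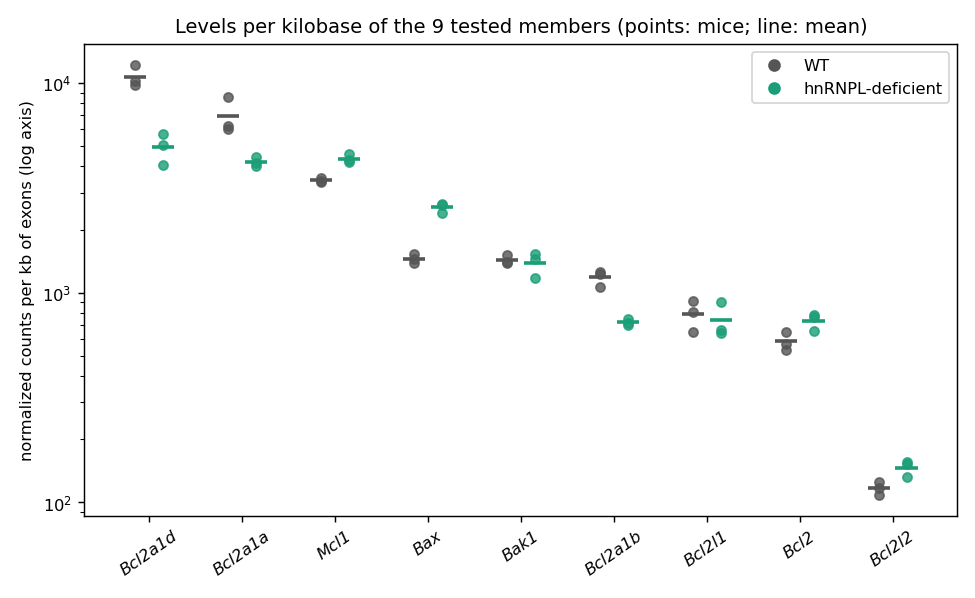
Normalized counts per kb of merged exons (log axis) of the 9 tested members, ordered by their WT mean. Points are libraries and lines are means; *Mcl1* lies below *Bcl2a1a* in WT and among the 3 highest members, all between 4020 and 5718, in hnRNPL-deficient libraries.

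The second comparison asked how other genes of the mitochondrial apoptosis pathway behaved in the same fit. Of 38 listed genes, 34 were tested, 2 were called higher and 2 lower, with a median log2 fold change of -0.06. For comparison, 7.28% of all genes tested were called higher and 4.08% lower, and their median was -0.03. The BH3-only genes encode the proteins that neutralize prosurvival members or activate the effectors. Of 8 listed, 6 were tested and only *Bcl2l11*, which encodes BIM, was called. It had 4389, 3956 and 3921 normalized counts in WT and 7358, 7225 and 7758 in hnRNPL-deficient libraries, well apart, and rose with a log2 fold change of 0.87 (adjusted p = 0.00124 from limma). *Bid* was lower with an adjusted p of 0.0264 from limma, but its log2 fold change of -0.43 was under the 1.5-fold minimum. *Pmaip1*, which encodes NOXA, and *Bbc3*, which encodes PUMA, had log2 fold changes of -0.21 (adjusted p = 0.359 from limma) and 0.55 (adjusted p = 0.258 from limma), with overlapping groups.

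None of the 4 tested genes among other BCL2-like genes was called, and *Bcl2l13* (log2 fold change 0.09), *Bcl2l12* (-0.02) and *Bcl2l15* (-0.29) had overlapping groups. *Bcl2a1c*, a further A1 copy named after its values were seen, had 27.9, 13.8 and 22.2 normalized counts in WT and 10.8, 5.05 and 17.8 in hnRNPL-deficient libraries, also with overlap. Of 13 partners and turnover factors of the family, only the HSP70 cochaperone *Bag3* was called, falling from 91.1 ± 9.73 to 44.0 ± 11.4 normalized counts (log2 fold change -1.06, adjusted p = 0.0411 from limma). *Huwe1* and *Usp9x*, the ubiquitin ligase and the deubiquitinase known to act on MCL1, had log2 fold changes of -0.14 and 0.14, and *Tmbim6* -0.05, none of which passed the test.

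Downstream of the mitochondrion, 6 genes of the apoptosome and caspases were tested. *Apaf1*, the scaffold of the apoptosome, had 2434, 2171 and 2012 normalized counts in WT and 3565, 3419 and 3385.5 in hnRNPL-deficient libraries and rose (log2 fold change 0.65, adjusted p = 0.00685 from limma). *Htra2*, a mitochondrial protease, fell from 1032 ± 46.7 to 681 ± 66.2 (log2 fold change -0.60, adjusted p = 0.0192 from limma). *Cycs*, which encodes cytochrome c, and *Xiap* had log2 fold changes of -0.24 and 0.09 and overlapping groups. None of the 5 NF-kB subunit genes was called. *Nfkb1* did not overlap between the groups and had a log2 fold change of -0.21 (adjusted p = 0.182 from limma), while *Rel* had 0.16 (adjusted p = 0.417 from limma) and *Nfkb2* had -0.23 (adjusted p = 0.422 from limma), both with overlapping groups. *Rela*, named after its values were seen, had a log2 fold change of -0.51 (adjusted p = 0.0993 from limma), under the 1.5-fold minimum and with overlapping groups.

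**Figure D5:**
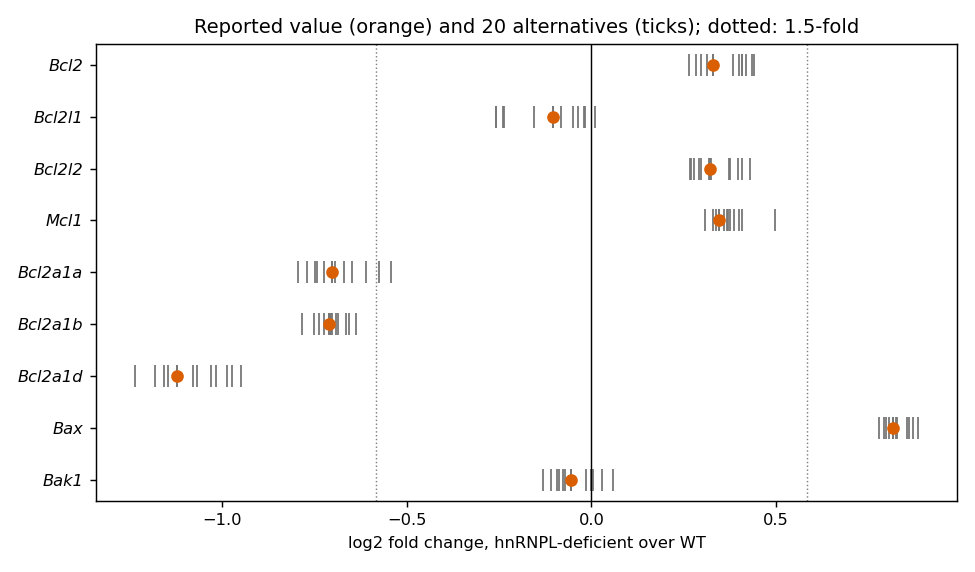
Log2 fold change of each tested member as reported (orange) and under 20 alternatives (ticks); dotted lines mark 1.5-fold. *Bcl2a1d* (-1.24 to -0.95) and *Bax* (0.78 to 0.89) stay outside 1.5-fold throughout, *Bcl2a1a* crosses it, and *Bak1* and *Bcl2l1* change sign.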

How the data were processed

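RNA-seq libraries of 3 WT and 3 hnRNPL-deficient mice were grouped by the submitters' labels. Per the study's methods and the submitters' processing notes, reads were trimmed with fastp 0.23.1, aligned to mm10 with STAR 2.7.9a, counted per gene by strand with featureCounts on GENCODE, and divided by DESeq2 1.38.2 size factors. The authors deposited these normalized counts (a signal; values need not be whole). The authors' deposited log2 fold changes, standard errors and test statistics (scores), p-values and adjusted p-values were not used. Values of each library were whole multiples of the smallest, within 0.05 for 100% of low values, and were thus read as reads.

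Here, limma 3.58.1 with its trend option (R 4.3.3) was run on log2(normalized count + 1) of the 17640 genes whose mean reached 10, at an adjusted p under 0.1 and at least 1.5-fold. Fold changes are on that scale. Adding 1 understates changes of low genes. edgeR 4.0.16 (quasi-likelihood, TMM) and DESeq2 1.42.0 were run on the reads of 5 libraries, without hnRNPL-deficient library 2, whose column an automatic test of whole reads did not accept because its step is close to 1. The tests were tried on simulated data. Members, gene lists, tests and the naming rule (members; listed pathway genes that were called, and up to 3 others per list by mean; the 3 genes most like the most changed member) were chosen with earlier results of these data known. Some listed pathway genes are not reported here and are left out of the counts for their list. Positions and exon lengths are from GENCODE M21 on GRCm38, an earlier release than the study's, and promoters from RefSeq on GRCm38.p6. No 2 libraries of a group agreed within sampling noise. *Xist* was high in WT library 3 and hnRNPL-deficient library 2 alone.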

Additional observations from a re-analysis of the deposited data

How the results depend on the processing

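The calls on *Bcl2a1d*, *Bcl2a1b* and *Bax* held in all 18 other fits and that on *Bcl2a1a* in 16 of them. With any library left out, 1 member was called higher and 2 to 3 lower. Over all genes 830 to 1111 were then called higher and 478 to 696 lower, fewest without WT library 3, from 1284 and 719 with all 6 libraries. The difference in share was then 3.50 to 8.36 percentage points for *Bcl2a1a*, 0.617 to 1.32 for *Bcl2a1b* and -9.60 to -4.12 for *Bcl2a1d*. At an adjusted p under 0.05 and 2-fold, 0 members were called higher and 1 lower (*Bcl2a1d*), with 610 and 216 of all genes. Here 0 is set by the fold, since *Bax* had an unadjusted p of 1.89e-05 from limma. At an adjusted p under 0.1 whatever the fold, 2 members were higher and 3 lower, with 1766 and 1406 of all genes. *Bak1* turned to 1.12e-05 with equal totals, 0.029 with quantile normalization, 0.0043 with library weights and 0.058 without hnRNPL-deficient library 3, and *Bcl2l1* to 0.0084 without WT library 2; their lowest values were -0.13 and -0.26, both without hnRNPL-deficient library 2. The cause was not tested.

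With the replicate number as a block, 1755 genes were higher and 1018 lower, *Bcl2* had an adjusted p of 0.0373 from limma, and 1 member was called higher and 3 lower. Same-numbered libraries correlated in their deviations at 0.43, 0.32 and 0.07, and WT library 3 correlated best with hnRNPL-deficient library 2, so the numbers were not taken to pair the mice. Equal totals moved the median log2 fold change of all genes from -0.03 to 0.03. Among the members, low counts kept *Bok* from being tested.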
